A study of Mus musculus with 12 samples.

Results

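The regions described are distal enhancers of myoblasts that lost acetylation of lysine 27 of histone H3 (H3K27ac) in myotubes. They are intervals of a ChIP-seq peak list, and their activity as enhancers was not tested. The myoblast H3K27ac list held 34676 intervals. Of these, 34162 lay on chromosomes 1 to 19, 21197 were over 2.5 kb from any transcription start site (TSS) of a protein-coding transcript, and 8212 of those overlapped no myotube H3K27ac interval. 2466 of the 8212 held 10 or more myoblast H3K27ac reads, and 2136 of the 2466 had a myoblast value at least 3 times the myotube value after 1 read was added to each count and the counts were divided by the reads of the library. These 2136 enhancers were 20.3% of the 10517 distal intervals with 10 or more reads. The comparison set was 8051 retained intervals, the distal ones with 10 or more reads that did overlap a myotube interval.

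Enhancers are stretches of DNA, often far from the genes they act on, that raise transcription when transcription factors bind them. Nucleosomes at an enhancer carry mono- and dimethylation of lysine 4 of histone H3 (H3K4me1 and H3K4me2), and acetylation of lysine 27 (H3K27ac) is added where the enhancer is active. Enhancers that keep H3K4me1 without H3K27ac are known as primed, and those that lose both are known as decommissioned. The question was how much H3K4me1 and H3K4me2 remained on these regions and which genes lay nearby.

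C2C12 is a mouse myoblast line, of the C3H strain by its labels, that stops dividing and fuses into myotubes in low serum. Chromatin was immunoprecipitated and sequenced from near-confluent myoblasts in 10% serum and from myotubes about 5 days after serum withdrawal, which had been separated from unfused cells by light trypsin treatment. The cells of all libraries were at passages 15 to 18 by the labels. 1 library was made for each of 6 histone marks in each cell type, so no value has a replicate, no test between conditions was possible and each ratio compares 2 libraries.

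The enhancers were chosen by their H3K27ac values, so those values describe the choice and support nothing. An enhancer held 15 myoblast H3K27ac reads in the median (10 to 228) and 6 myotube reads (0 to 51). The median myotube/myoblast ratio was 0.161 (quartiles 0.107 and 0.228). Over all distal intervals 31.0% were at least 3-fold lower in myotubes, a share that includes intervals with a myotube peak. The 5 members just inside the limit each held 12 myoblast and 10 myotube reads, 3.00-fold apart. The nearest interval outside it, beside Nhsl1, held 45 and 38 reads. 98 members lay under 3.3-fold and 92 intervals outside lay over 2.7-fold, so the boundary ran through a continuous range.

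The libraries differed in depth and enrichment. They held 1858771 (myoblast H3K27ac) to 7033100 (myoblast H3K36me3) reads of 34 bp, and the genome mean lay between 0.727 and 2.75 reads per kb. H3K27ac was lower in the myotube library at most places, with a median ratio of 0.725 over retained intervals and 0.570 over all promoters, so ratios below are read against these sets. The peak list used for myoblast H3K27ac was deposited with the sample labelled H3K27me3, and the list named H3K27me3 with the H3K27ac sample, and each was used by its name. The cell labels matched the marks at muscle genes. Of 38 muscle differentiation promoters with 20 or more reads, H3K27ac was at least 2-fold higher in myotubes at 29 and 2-fold lower at 0, while at 19 of 20 cell cycle promoters it was at least 2-fold lower. A lower count in a bulk library cannot tell fewer cells with the mark from less of the mark in each cell.

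The sequences of 7 enhancers are shown as examples. They are the central 300 bp of the interval on the plus strand of mm9, in windows that touch no annotated exon, and they were chosen after their values were seen. Syt13 and Fam19a5 had the most myoblast H3K27ac reads, Twist2, Fosl1 and Id1 lay beside regulators of growth and of the myoblast state, Nfix gained H3K4me1 in myotubes and Chst1 had no H3K4me2 read left. Capitals mark, on either strand, matches to motifs of transcription factor families that are known to act in myoblasts, which are TGANTCA (AP-1), CAGCTG (the E-box form bound by MyoD), GGAATG (Tead), TGTGGT (Runx) and GGAAGT (Ets).
Syt13 (intron of Syt13, chr2:92788008-92788307): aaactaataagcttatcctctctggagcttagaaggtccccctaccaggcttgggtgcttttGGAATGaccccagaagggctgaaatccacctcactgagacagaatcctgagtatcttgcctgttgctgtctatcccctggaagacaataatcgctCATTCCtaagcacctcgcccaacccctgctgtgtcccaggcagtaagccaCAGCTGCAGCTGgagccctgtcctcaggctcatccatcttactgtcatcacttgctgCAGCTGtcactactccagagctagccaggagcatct
Fam19a5 (intron of Fam19a5, chr15:87546789-87547088): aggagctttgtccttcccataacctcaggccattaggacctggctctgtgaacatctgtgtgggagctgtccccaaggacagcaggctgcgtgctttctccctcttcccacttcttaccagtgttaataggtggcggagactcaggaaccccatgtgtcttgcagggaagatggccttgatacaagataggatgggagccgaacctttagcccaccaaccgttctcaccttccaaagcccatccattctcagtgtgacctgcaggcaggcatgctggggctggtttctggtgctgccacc
Twist2 (intron of Twist2, chr1:93712850-93713149): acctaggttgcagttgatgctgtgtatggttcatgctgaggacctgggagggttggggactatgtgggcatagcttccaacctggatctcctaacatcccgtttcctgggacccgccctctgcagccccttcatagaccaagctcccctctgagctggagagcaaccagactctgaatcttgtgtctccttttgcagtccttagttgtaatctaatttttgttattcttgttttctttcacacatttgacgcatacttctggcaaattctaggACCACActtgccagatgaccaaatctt
Fosl1 (intron of Fosl1, chr19:5451805-5452104): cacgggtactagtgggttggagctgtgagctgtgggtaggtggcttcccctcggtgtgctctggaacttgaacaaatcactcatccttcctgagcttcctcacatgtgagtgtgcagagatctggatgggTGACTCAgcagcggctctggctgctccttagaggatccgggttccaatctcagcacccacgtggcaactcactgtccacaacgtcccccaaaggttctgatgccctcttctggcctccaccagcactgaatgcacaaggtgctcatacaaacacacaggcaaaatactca
Id1 (outside genes, chr2:152554746-152555045): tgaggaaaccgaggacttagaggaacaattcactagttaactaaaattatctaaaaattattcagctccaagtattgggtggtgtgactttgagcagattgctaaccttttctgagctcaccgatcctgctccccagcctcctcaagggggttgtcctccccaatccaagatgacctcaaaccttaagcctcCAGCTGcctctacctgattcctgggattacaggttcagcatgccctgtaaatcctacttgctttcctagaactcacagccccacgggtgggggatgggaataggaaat
Nfix (intron of Nfix, chr8:87303779-87304078): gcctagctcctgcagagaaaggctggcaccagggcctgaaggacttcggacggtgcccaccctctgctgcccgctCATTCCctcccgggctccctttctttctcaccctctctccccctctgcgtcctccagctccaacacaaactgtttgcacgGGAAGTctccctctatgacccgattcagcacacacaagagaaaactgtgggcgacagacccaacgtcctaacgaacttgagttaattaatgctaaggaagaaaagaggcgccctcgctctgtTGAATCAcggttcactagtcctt
Chst1 (intron of Chst1, chr2:92446391-92446690): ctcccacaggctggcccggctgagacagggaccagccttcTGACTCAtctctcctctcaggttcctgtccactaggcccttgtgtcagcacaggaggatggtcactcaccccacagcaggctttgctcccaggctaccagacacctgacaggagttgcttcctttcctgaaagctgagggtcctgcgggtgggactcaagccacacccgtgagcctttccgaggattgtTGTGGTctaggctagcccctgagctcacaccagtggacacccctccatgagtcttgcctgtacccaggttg
Syt13 held 3 E-box matches and 2 Tead matches, Fosl1, Nfix and Chst1 each held 1 AP-1 match, Id1 held 1 E-box match, Twist2 held 1 Runx match and Fam19a5 held none. A match describes the letters and not a bound site.

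H3K4me1 was lower in myotubes at most of the 2136 enhancers. The median enhancer held 47 myoblast and 14 myotube H3K4me1 reads, and the median ratio was 0.329 (95% interval of the median 0.318 to 0.342, quartiles 0.224 and 0.478). The same ratio was 0.535 over all distal intervals and 0.587 over retained intervals. At 1657 enhancers (77.6%) H3K4me1 was at least 2-fold lower in myotubes, against 44.3% of all distal intervals, and at 7 it was at least 2-fold higher, against 1.26%. A 4-fold or larger decrease was measured at 669 enhancers (31.3%), at 9.19% of all distal intervals and at 3.25% of retained intervals. Summed over the enhancers, the reads went from 121273 to 36895, a ratio of 0.314 after scaling (0.311 to 0.318).

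H3K4me2 decreased to a like extent. The median enhancer held 20 myoblast and 7 myotube H3K4me2 reads, with a median ratio of 0.343 (0.328 to 0.354), against 0.602 over all distal intervals and 0.677 over retained ones. It was at least 2-fold lower at 1546 enhancers (72.4%), against 39.2% of all distal intervals, and at least 2-fold higher at 15, against 3.67%. Both marks were at least 2-fold lower at 1297 enhancers (60.7%), compared with 27.5% of all distal and 18.5% of retained intervals. Neither was at 230 enhancers (10.8%), compared with 44.0% of all distal and 53.3% of retained intervals. Across the 2136 enhancers the log2 ratios of H3K4me1 and H3K4me2 had a Spearman correlation of 0.428. Those of H3K27ac and H3K4me1 had 0.375 and those of H3K27ac and H3K4me2 had 0.312. These describe points that share their libraries and low counts, and carry no test.

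**Figure D1:**
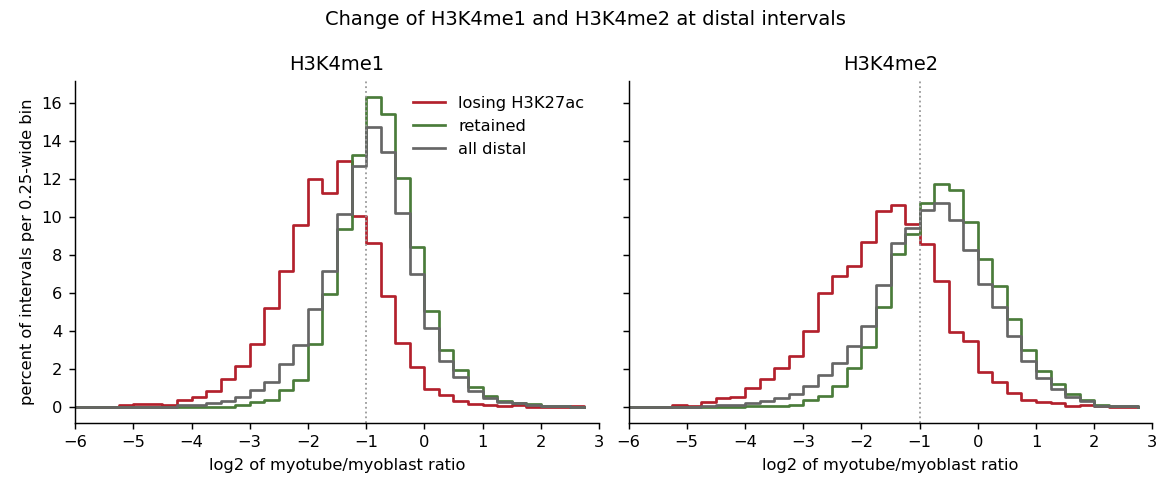
Distribution of the log2 myotube/myoblast ratio of H3K4me1 (left) and H3K4me2 (right) over the 2136 enhancers losing H3K27ac, the 8051 retained intervals and all 10517 distal intervals, as the percent of each set per bin. The dotted line marks a 2-fold decrease, and the enhancers losing H3K27ac lie to its left at 77.6% for H3K4me1 and 72.4% for H3K4me2.

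What remained in myotubes still stood above the genome mean. In units of the genome mean of each library, the median enhancer went from 19.9 to 6.12 for H3K4me1, from 12.6 to 3.74 for H3K4me2 and, by the rule, from 23.8 to 3.57 for H3K27ac. The myotube H3K4me1 count was above the genome mean beyond its Poisson interval at 1864 enhancers (87.3%), and that of H3K4me2 at 1317 (61.7%). Over all distal intervals these shares were 95.9% and 89.0%, and over retained intervals 98.1% and 96.2%. Against the 200 kb around each enhancer, a stricter background chosen after these values were seen, the numbers were 1534 (71.8%) and 947 (44.3%). With that background the shares were 88.4% and 76.8% over all distal intervals, and 93.0% and 85.9% over retained ones. Myotube H3K27ac, low by the rule, was above the genome mean at 1310 enhancers (61.3%) and above the 200 kb background at 803 (37.6%). Over all distal intervals it was above them at 92.0% and 82.6%. For the methylation marks, H3K4me1 alone was above the genome mean at 618 enhancers (28.9%), both marks at 1246 (58.3%), H3K4me2 alone at 71 and neither at 201 (9.41%). Both marks were above it at 87.0% of all distal intervals, and neither at 2.20%.

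The mean profile had the same form. At the midpoint of the enhancers H3K4me1 went from 24.5 to 7.38 times the genome mean and H3K4me2 from 19.9 to 5.64, while the level over 4 kb away went from 5.79 to 3.29 and from 4.73 to 2.80. In myotubes, therefore, a low summit of both marks remained on a flank that was itself above the genome mean. A low H3K27ac summit remained as well, with 4.29 at the midpoint and 3.21 over 4 kb away. At retained intervals the midpoint went from 23.5 to 12.7 for H3K4me1 and from 25.8 to 15.5 for H3K4me2. The myoblast summit of H3K4me1 was thus of about the same height in both sets, and that of H3K4me2 was lower at the enhancers losing H3K27ac.

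**Figure D2:**
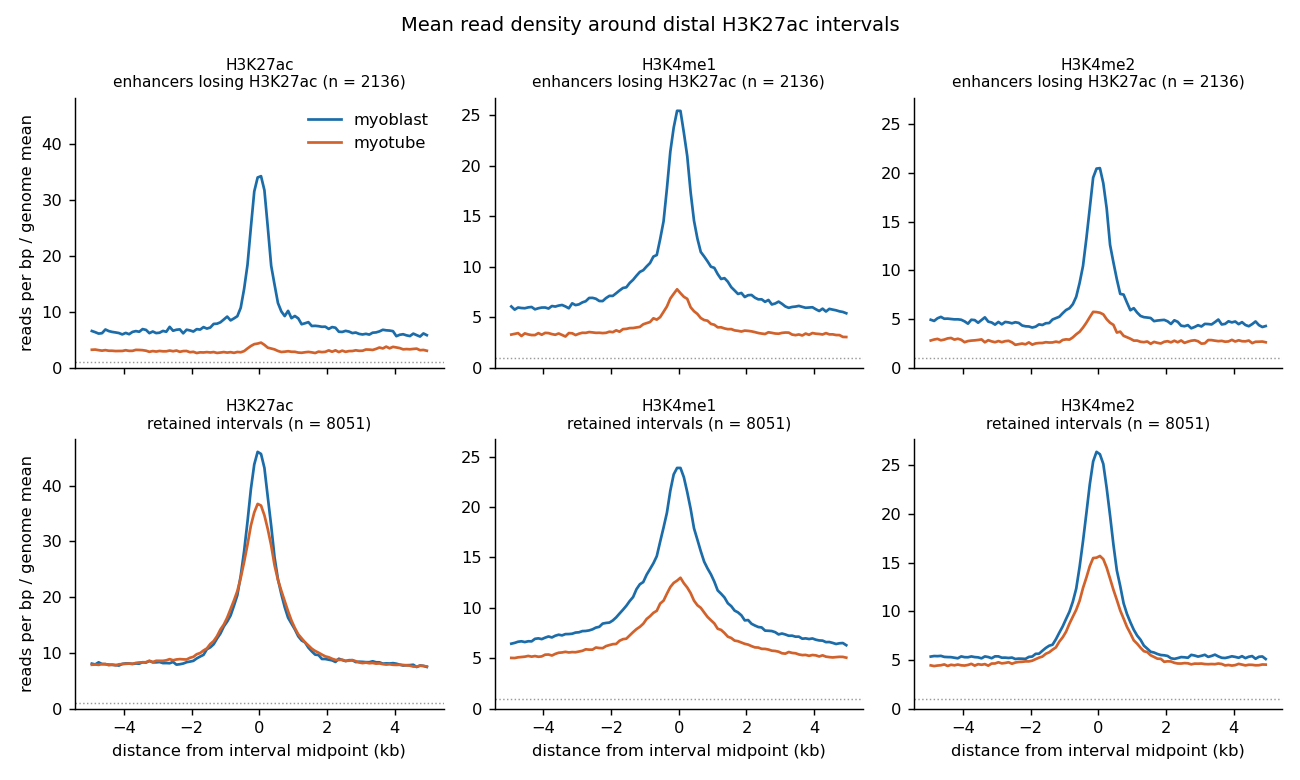
Mean read density of H3K27ac, H3K4me1 and H3K4me2 within 5 kb of the interval midpoint, divided by the genome mean (dotted line), in myoblasts and myotubes, at enhancers losing H3K27ac (top) and at retained intervals (bottom). At the enhancers losing H3K27ac the midpoint fell from 24.5 to 7.38 for H3K4me1 and from 19.9 to 5.64 for H3K4me2, and a small summit was left in myotubes.

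The authors' peak lists gave fewer remaining marks than the read counts. In myoblasts 2051 of the 2136 enhancers overlapped an H3K4me1 peak, and 580 of these (28.3%, exact binomial interval 26.3 to 30.3%) also overlapped a myotube H3K4me1 peak. The share was 65.9% over all distal intervals and 76.9% over retained ones. A myoblast H3K4me2 peak was present at 1415 enhancers and 349 of these (24.7%, 22 to 27%) overlapped a myotube peak, against 69.5% over all distal intervals and 80.2% over retained ones. In myotubes 158 enhancers (7.40%) overlapped peaks of both marks, 431 (20.2%) only H3K4me1, 215 (10.1%) only H3K4me2 and 1332 (62.4%) neither. The 1332 enhancers with neither peak still held 11 H3K4me1 and 5 H3K4me2 reads in the median. These shares depend on how overlap is counted, and when peaks had to cover at least 50% of the enhancer in both cell types they were 1.88% for H3K4me1 and 11.7% for H3K4me2. With peak scores of at least 100 they were 5.40% and 15.1%.

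**Figure D3:**
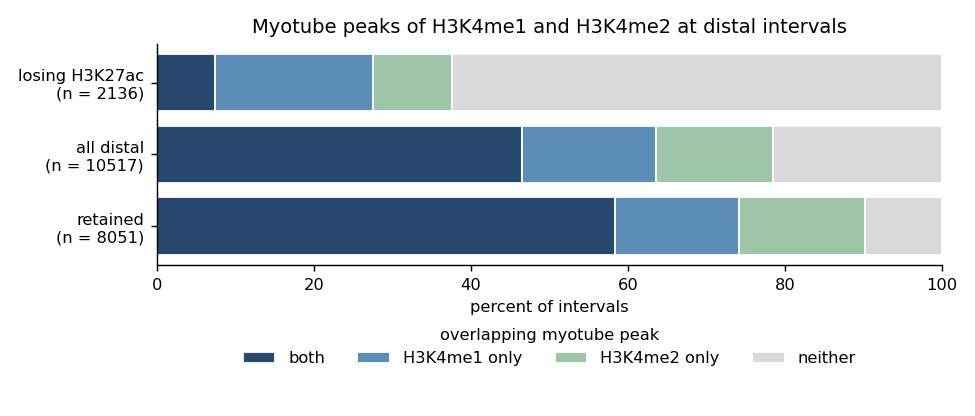
Percent of intervals that overlap a myotube peak of H3K4me1 and H3K4me2, of 1 of them or of neither, for enhancers losing H3K27ac, all distal intervals and retained intervals. Neither peak was present at 62.4% of the enhancers losing H3K27ac, at 21.5% of all distal intervals and at 9.74% of retained intervals.

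What remained differed a little between enhancers with few and with many myoblast H3K27ac reads, and did so at retained intervals too. The median H3K4me1 ratio was 0.344 for the 982 enhancers with 10 to 14 myoblast H3K27ac reads, 0.324 for the 730 with 15 to 24 and 0.309 for the 424 with 25 or more. The H3K4me2 ratios of the same classes were 0.376, 0.348 and 0.279. Myotube H3K4me1 peaks were present at 23.0%, 27.9% and 37.5% of these classes, and the strongest enhancers were also wider, 1522 bp in the median against 760 bp for the weakest. In the same classes of retained intervals the H3K4me1 ratios were 0.636, 0.620 and 0.550 and the H3K4me2 ratios 0.812, 0.738 and 0.602. Myotube H3K4me1 peaks were present at 65.5%, 70.2% and 80.7% of those intervals.

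Taken alone, the ratios of the other marks lay nearer to 1, but that of H3K4me3 was also below its value over all distal intervals. H3K4me3, the mark of promoters, was scarce, with 3 myoblast and 2 myotube reads in the median, a median ratio of 0.673 and a ratio of the sums of 0.608 (0.590 to 0.627), while the median was 1.09 over all distal intervals. 155 enhancers (7.26%) overlapped a myoblast H3K4me3 peak, against 15.8% of all distal and 18.5% of retained intervals. These 155 had a median H3K4me1 ratio of 0.441 against 0.323 at the other 1981. H3K27me3, the mark laid down by Polycomb repressors, lay near the genome mean in both cell types. The enhancers held 2 H3K27me3 reads in the median in each library. 3 overlapped a myoblast and 0 a myotube H3K27me3 peak, against 4 and 1 of all 10517 distal intervals. The midpoint was at 0.895 times the genome mean in myoblasts and 1.06 in myotubes. The count was above the genome mean at 31 enhancers in myoblasts (1.45%, against 0.989% of all distal intervals) and 85 in myotubes (3.98%, against 2.94%). The ratio of the sums was 1.23 (1.18 to 1.28) here and 1.16 over all distal intervals. H3K36me3, which marks transcribed gene bodies, had a ratio of the sums of 1.02 (0.996 to 1.04), against 0.875 over all distal and 0.844 over retained intervals.

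The enhancers with the most myoblast reads showed both marks going down together. The strongest and widest of all, with 4558 bp, lay in an intron of Syt13, which encodes a synaptotagmin of vesicle traffic (chr2:92785879-92790436). There H3K27ac went from 228 to 36 reads, H3K4me1 from 327 to 93 and H3K4me2 from 142 to 28, so the ratio was 0.296 (0.231 to 0.371) for H3K4me1 and 0.183 (0.114 to 0.268) for H3K4me2. This enhancer kept a myotube H3K4me1 peak and no H3K4me2 peak.

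The next lay in an intron of Fam19a5, which encodes a secreted protein (chr15:87545027-87548850). H3K27ac went from 207 to 11 reads, H3K4me1 from 289 to 60 and H3K4me2 from 256 to 22, with ratios of 0.217 (0.160 to 0.284) and 0.0808 (0.0478 to 0.120). The H3K4me3 reads there also went down, from 50 to 3. Neither H3K4me1 nor H3K4me2 kept a peak.

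The enhancer nearest to Lypd6b (chr2:49598419-49601909) lay in the gene body of Kif5c, a kinesin motor. H3K4me2 was its strongest methylation, with 352 reads that went down to 93, a ratio of 0.240 (0.188 to 0.300), and a myotube H3K4me2 peak remained. H3K4me1 went from 167 to 54 reads and left no peak.

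The enhancer outside genes near Npl (chr1:155412133-155412837) was 705 bp long and kept a myotube H3K4me1 peak. It went from 87 to 12 H3K27ac reads, and its H3K4me1 from 180 to 12, a ratio of 0.0742 (0.0349 to 0.123). The other strong enhancers lay in Ptpn1, which encodes a tyrosine phosphatase, Sema7a, a membrane semaphorin, Kctd17, Dagla, a diacylglycerol lipase, Sorcs2 and Shc2, in Col4a2 with Col4a1 as the nearest gene, and outside genes near Rai14. Those of Rai14 and Kctd17 overlapped a myoblast H3K4me3 peak, and their H3K4me3 reads went from 51 to 4 and from 17 to 5. At Sorcs2 (chr5:36698930-36702033) the H3K4me1 reads went from 256 to 141 and the H3K4me2 reads from 67 to 45. Its ratios, 0.571 (0.460 to 0.701) and 0.611 (0.406 to 0.898), were the highest of both marks among the 12 strongest enhancers.

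**Figure D4:**
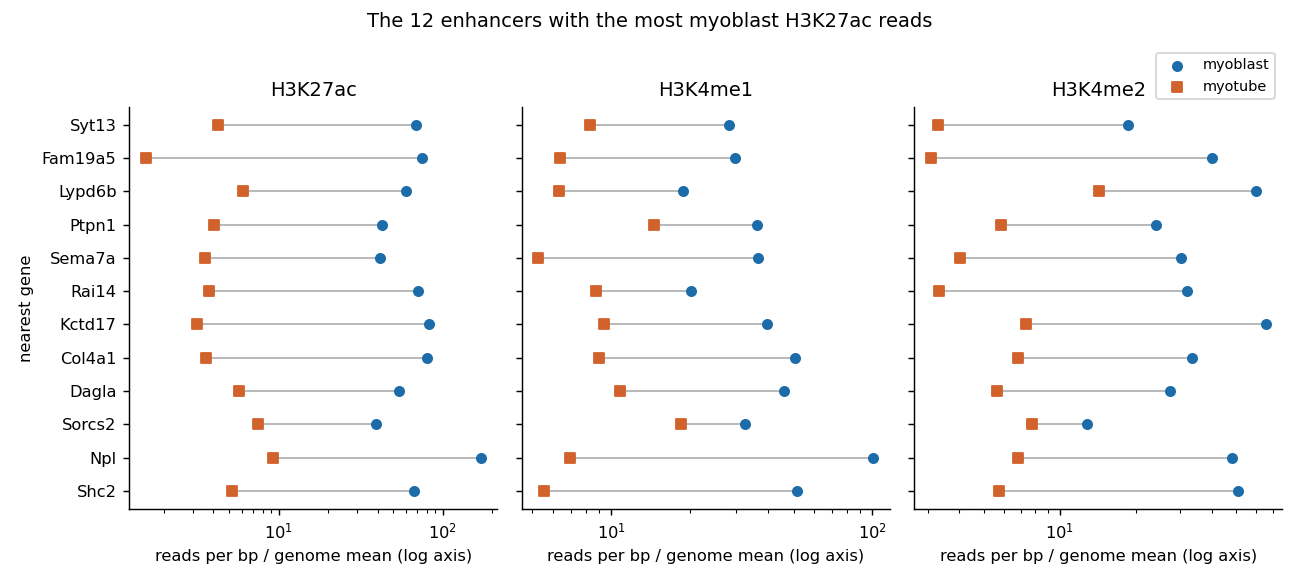
Read density in the interval over the genome mean (log axis) of H3K27ac, H3K4me1 and H3K4me2 at the 12 enhancers with the most myoblast H3K27ac reads, named by the nearest gene, in myoblasts (circles) and myotubes (squares). Each myotube value lies below its myoblast value, with the narrowest gap for H3K4me1 and H3K4me2 at Sorcs2.

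A few enhancers gained or held H3K4me1 while H3K27ac was lost. The highest H3K4me1 ratio was in an intron of Nfix, a transcription factor of fetal muscle (chr8:87303205-87304653). Its H3K4me1 reads went from 13 to 38, a ratio of 2.88 (1.57 to 6.18), while H3K4me2 went from 67 to 48 and H3K27ac from 16 to 13. It overlapped peaks of both marks in both cell types. Other high ratios were at enhancers near Med30, with 10 and 21 reads, Hist2h2bb, with 11 and 20, and Pou2f1, with 16 and 25, and at these 3 the interval of the ratio included 1. Hist2h2bb and Pou2f1 held many H3K4me3 reads, 63 and 80 at Hist2h2bb and 71 and 58 at Pou2f1 in myoblasts and myotubes, and few myoblast H3K4me1 reads. The interval of H3K4me2 excluded 1 upwards at Fam168b, with 4 and 16 reads (ratio 3.07, 1.16 to 14.8), and at Hivep2, with 5 and 17 reads (2.71, 1.09 to 10.6). With 2136 enhancers some intervals exclude 1 from counting error alone.

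At the other extreme hardly any methylation was left. H3K4me1 went from 77 reads to 1 at the enhancer near Dok1 (chr6:82975187-82975859), from 38 to 0 near AA467197, from 66 to 1 near Inpp5f, from 60 to 1 near Oaf and from 120 to 3 near Tmem26. The Tmem26 enhancer (chr10:68157853-68159027) had the most reads of these, a ratio of 0.0341 (0.00525 to 0.0773), and its H3K4me2 reads went from 26 to 2. H3K4me2 went from 66 reads to 0 in an interval of Med25, which encodes a Mediator subunit, from 31 to 0 at Gfod1 and at Uspl1, from 24 to 0 at Chst1 and from 23 to 0 at Sox13. At Med25 (chr7:52140511-52142825) the interval of the ratio reached up to 0.0519, and H3K4me1 went from 99 to 9. These 5 kept between 4 and 13 H3K4me1 reads. Over all the enhancers, 11 had no myotube H3K4me1 read and 64 no myotube H3K4me2 read. For a count of 0 the 1-sided 95% limit is about 3 reads.

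Most enhancers lay in or near genes but far from their start. The midpoint of 1120 (52.4%) was in an intron, of 922 (43.2%) outside genes and of 94 in an exon, and for all distal intervals the first and second shares were 51.0% and 45.1%. The nearest TSS was 27112 bp away in the median, and 24233 bp for retained intervals. The enhancers were narrower than retained intervals, 922 bp against 1199 bp in the median. Those outside genes had a median H3K4me1 ratio of 0.312 and those in introns 0.344, and myotube H3K4me1 peaks were present at 22% and 32.2% of them. GC content was 50.7% in the median and 50.2% for retained intervals, so base composition differed little.

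When enhancers up to 25 kb apart were joined, 867 (40.6%) fell into 352 runs of 2 or more and 1269 stood alone. Runs were not counted for all distal or retained intervals, so whether the enhancers lay in runs more often was not tested. There were 102 runs of 3 or more, and the longest, singled out after the values were seen, held 9 enhancers over 89367 bp between Bcar3 and Fnbp1l (chr3:122139472-122228838), where H3K4me1 went from 661 to 201 reads and H3K4me2 from 196 to 62. 1039 enhancers (48.6%) lay within 25 kb of a retained interval, all 9 of this run among them. This share too has no counterpart for the other distal intervals. The 6 enhancers of the Tnfrsf1b run had no retained interval within 25 kb, and their H3K4me1 ratio was 0.203 in sum.

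AP-1 letters were as common at the enhancers as at retained intervals, and E-box letters were found at a lower share of the enhancers. These shares carry no test, and the sets also differed in width and in myoblast H3K27ac reads. TGANTCA was found on either strand in the central 300 bp of 20.1% of the enhancers (18.4 to 21.8%), 20% of all distal intervals and 20% of retained intervals, and in 9.90% of windows of the same length 2 kb to either side of the enhancers. CAGCTG was found in 23.5% of the enhancers (21.8 to 25.4%), 26.4% of all distal intervals and 27.2% of retained ones (26.3 to 28.2%), against 15.6% of the flanking windows. Tead, Runx and Ets letters were in 18.7%, 26.2% and 21.0% of the enhancers and in 19.6%, 25.9% and 21.5% of retained intervals. The Mef2 motif, of a factor family of muscle differentiation, was found at only 4 enhancers (0.187%, 0.0510 to 0.479%). It was found at 0.761% of all distal and 0.919% of retained intervals, and in 0.328% of the flanking windows of the enhancers. The median H3K4me1 ratio was 0.318 with and 0.332 without an AP-1 match, and 0.326 with and 0.330 without an E-box match.

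The enhancers had 1416 protein-coding genes as the nearest gene. 994 of these genes were nearest to 1 enhancer, 253 to 2 and 169 to 3 or more. Nearness does not show which gene an enhancer acts on. H3K27ac at the promoter, counted within 1 kb of the TSS where both libraries together held 20 or more reads, had a median ratio of 0.509 over 987 of these genes, and it was at least 2-fold lower at 489 (49.5%), against 41.5% of all promoters. The median was 0.536 for genes with 1 enhancer, 0.480 with 2 and 0.411 with 3 or more, while it was 0.570 over all genes and 0.670 over genes that had retained intervals and no enhancer losing H3K27ac. The promoter measure uses the H3K27ac libraries that chose the enhancers, though in other windows.

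Among the marks that the choice did not use, promoter H3K4me3, promoter H3K27me3 and gene body H3K36me3 gave the same order and promoter H3K4me2 did not. Promoter H3K4me3 had a median ratio of 0.866 over all genes, 0.784 with 1 enhancer, 0.731 with 2 and 0.626 with 3 or more. H3K36me3 over the gene body had medians of 1.03, 0.998, 0.938 and 0.832. Promoter H3K4me2 had medians of 0.591 over all genes and 0.521, 0.526 and 0.530 in the same classes. Promoter H3K27me3, the repressive mark, had medians of 0.777, 0.722, 0.683 and 0.525, the last 3 over only 118, 19 and 15 genes with enough reads. The gene body was at least 2-fold lower at 9.62% of the genes with an enhancer and at 15.3% of those with 3 or more, against 6.24% of all genes. The quartiles of these classes overlapped for each measure. Whether gene length or the number of distal intervals moved with these classes was not tested.

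**Figure D5:**
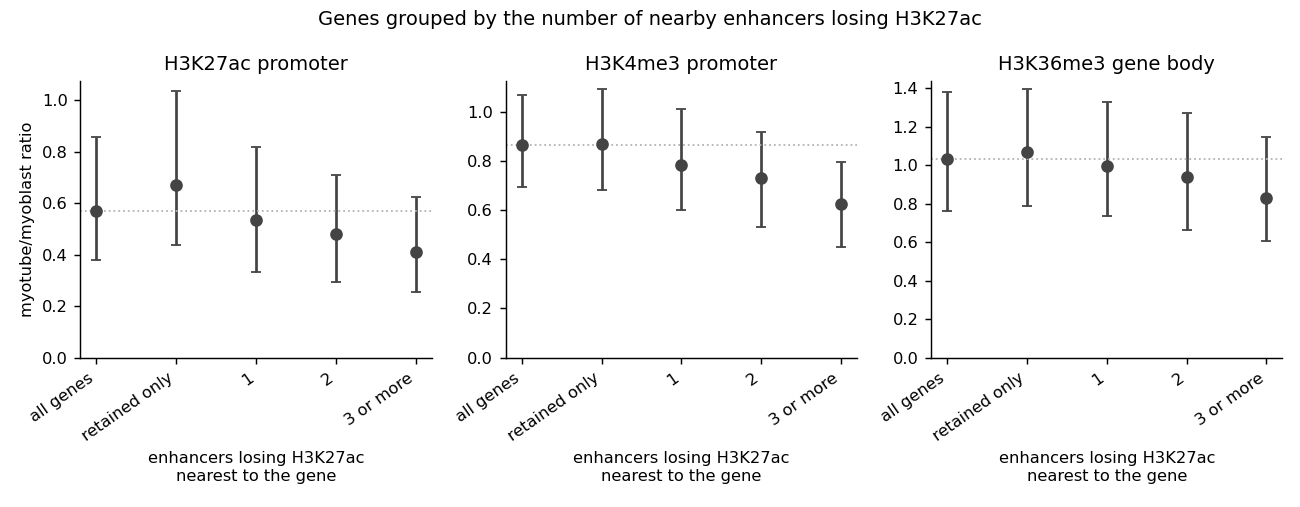
Myotube/myoblast ratio of promoter H3K27ac, promoter H3K4me3 and gene body H3K36me3 for all genes, for genes whose nearby distal intervals were retained, and for genes nearest to 1, 2 or 3 or more enhancers losing H3K27ac. Points are medians, bars run between the quartiles and the dotted line is the median of all genes, below which the medians for 3 or more enhancers lie at 0.411, 0.626 and 0.832.

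The genes nearest to the most enhancers differed in how far H3K4me1 and H3K4me2 went down at them. Promoter and gene body ratios of single genes are given with no read added.

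Twist2 encodes a basic helix-loop-helix repressor that holds back MyoD, and 6 of its 7 distal intervals lost H3K27ac. The strongest, in its intron (chr1:93711926-93714074), went from 81 to 9 H3K27ac reads, from 175 to 15 H3K4me1 reads and from 109 to 12 H3K4me2 reads. Its ratios were 0.0939 (0.0485 to 0.150) for H3K4me1 and 0.107 (0.0498 to 0.181) for H3K4me2. The others held 28 and 5, 40 and 21, 57 and 11, 85 and 16, and 78 and 22 H3K4me1 reads in myoblasts and myotubes, so H3K4me1 was lower at each of the 6 and at least 2-fold lower at 5. H3K4me2 was at least 2-fold lower at 4, and at the enhancer with 28 and 5 H3K4me1 reads it held 1 and 5 reads. At the Twist2 promoter H3K27ac went from 95 to 16 reads (0.0663, 0.0364 to 0.113), H3K4me3 from 87 to 36 and gene body H3K36me3 from 386 to 103.

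All 8 enhancers of Fam19a5 lay in the gene, at which 8 of 9 distal intervals lost H3K27ac, and 7 of them were at least 2-fold lower in each of H3K4me1 and H3K4me2. Tcf7l2, a transcription factor at the end of the Wnt pathway, had 8, and each was at least 2-fold lower in H3K4me1, with ratios of 0.153 to 0.363. Zmiz1, a transcriptional coactivator, also had 8, but 18 of its 27 distal intervals were retained. Its promoter H3K27ac went from 67 to 89 reads, a ratio of 0.523 that lay near the 0.570 of all promoters. All 6 distal intervals of Tnfrsf1b, a receptor of tumour necrosis factor, lost H3K27ac, and its promoter H3K27ac went from 44 to 28 reads (0.25, 0.150 to 0.411). Dagla had 6 of 8, with 72 and 17 promoter reads (0.0929), Tns1, an adhesion protein, 6 of 19, with 84 and 29 (0.136), and Sorcs2 7 of 12, with 62 and 26 (0.165). Tanc1 had 7 of 12, all at least 2-fold lower in H3K4me2, and its promoter H3K27ac had a ratio of 0.807 (0.586 to 1.12), above that of all promoters.

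12 of 25 factors of the mesenchymal and progenitor state were nearest to at least 1 enhancer losing H3K27ac, against 6.61% of all protein-coding genes. Among genes nearest to any distal interval, these were 12 of 20 in the list and 1416 of 4106 overall. Of the 118 distal intervals nearest to genes of the list, 30 lost H3K27ac (25.4%, against 20.3% over all genes). The median ratio of H3K4me1 over the 30 was 0.214, against 0.329 over all 2136. At 26 of the 30 (86.7%) H3K4me1 was at least 2-fold lower, against 77.6% of all 2136. H3K4me2 was at least 2-fold lower at 23 (76.7%), against 72.4%. H3K27ac at the 10 promoters of these genes with 20 or more reads had a median ratio of 0.190, and the median over all 20 such promoters of the list was 0.476. The promoter ratios of Zeb2 (0.906, 0.674 to 1.23) and Sox9 (0.597, 0.479 to 0.746) lay above the 0.570 of all promoters. The gene list was drawn up with earlier results of these libraries known, so its share is a description.

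Inhibitors of MyoD and related basic helix-loop-helix factors stood among them. Id1, Id2 and Id3 encode proteins that bind the E protein partners of MyoD without binding DNA. Of their distal intervals, 3 of 4 were retained at Id1, 2 of 4 at Id2 and 5 of 7 at Id3. The 1 enhancer of Id1 that lost H3K27ac (chr2:152553535-152556256) went from 60 to 18 H3K27ac reads. Its H3K4me1 went from 196 to 35 reads (0.189, 0.125 to 0.265) and its H3K4me2 from 99 to 22 (0.208, 0.120 to 0.321). At the promoters H3K27ac went from 154 to 62 reads at Id1, from 53 to 32 at Id2 and from 172 to 63 at Id3. Msc, which encodes the repressor musculin, had 1 enhancer with 28 and 15 H3K4me1 reads and 17 and 21 H3K4me2 reads, where H3K4me2 did not go down. Its promoter H3K27ac went from 72 to 3 reads (0.0164, 0.00330 to 0.0499).

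Hmga2, a chromatin protein of growing mesenchymal cells, had 4 enhancers, with H3K4me1 ratios of 0.0991 to 0.606 and H3K4me2 ratios of 0.387 to 1.30. Its promoter H3K27ac went from 134 to 36 reads and its gene body H3K36me3 from 2681 to 313. All 3 distal intervals of Pax7, the marker of muscle stem cells, lost H3K27ac, and all were in its gene body. The strongest held 40 and 15 H3K27ac reads and 75 and 14 H3K4me1 reads, and its promoter held only 7 and 5 H3K27ac reads. Foxc2 had 4 of 13 distal intervals among the enhancers and Runx2, the factor of bone formation, 3 of 10.

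The cell cycle list had few distal intervals, and 7 of 17 (41.2%, against 20.3% over all genes) lost H3K27ac. They lay near E2f2, Ccne1 (cyclin E), Cdk6 and Ccnd1 (cyclin D1), and H3K4me1 was at least 2-fold lower at all 7 (77.6% over all 2136 enhancers), with a median ratio of 0.269. H3K4me2 was at least 2-fold lower at 5 of the 7 (71.4%, against 72.4% of all 2136). At Ccnd1, 7 of 8 distal intervals were retained. Its 1 enhancer that lost H3K27ac lay 169 kb from its TSS. It went from 46 to 12 H3K4me1 reads and from 11 to 6 H3K4me2 reads. H3K27ac at the Ccnd1 promoter went from 65 to 8 reads (0.0484, 0.0201 to 0.101). The median promoter ratio was 0.146 over the 20 genes of the list with enough reads and 0.145 at these 4, so the promoters beside the enhancers did not stand apart from the list.

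Genes of growth factor signalling had 13 of 32 distal intervals (40.6%, against 20.3% over all genes) among the enhancers. H3K4me2 was at least 2-fold lower at 12 of the 13, against 72.4% of all 2136 enhancers. H3K4me1 was at least 2-fold lower at 11 (84.6%), against 77.6%. Those of Fgfr1, a fibroblast growth factor receptor, went from 72 to 16 and from 48 to 9 H3K4me1 reads. At Fgfr1 4 of 6 distal intervals were retained. The enhancers of Dusp6, which switches off ERK kinases, went from 64 to 33 and from 39 to 9 H3K4me1 reads. Promoter H3K27ac was not low at all of them, with 29 and 175 reads at Igf1r (2.37, 1.60 to 3.65) and 10 and 38 at Lif (1.49, 0.731 to 3.36), compared with 54 and 20 at Etv4 (0.146, 0.0826 to 0.247).

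Of 16 AP-1 and immediate early genes, Myc, Jun, Fosl1 and Maff had 9 of 43 distal intervals (20.9%), near the 20.3% of all genes. H3K4me1 was at least 2-fold lower at all 9, against 77.6% of all 2136 enhancers. H3K4me2 was at least 2-fold lower at 7 (77.8%), against 72.4%. Fosl1 encodes the AP-1 subunit Fra-1, and its only distal interval (chr19:5451579-5452331) went from 12 to 1 H3K27ac reads, from 33 to 2 H3K4me1 reads (0.0911, 0.00728 to 0.245) and from 14 to 2 H3K4me2 reads. Its promoter H3K27ac went from 146 to 24 reads (0.0647, 0.0401 to 0.100). At Jun the promoter held 159 and 354 reads (0.876, 0.724 to 1.06) and at Myc 150 and 283 (0.742, 0.607 to 0.911), which were above the median of all promoters. The 5 Myc enhancers lay 131 to 582 kb from its TSS, and 8 other distal intervals of Myc were retained.

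The TGF-beta, YAP and SRF targets had 13 of 78 distal intervals (16.7%) and the matrix and adhesion genes 10 of 64 (15.6%) among the enhancers, both under the share of all genes. H3K4me1 was at least 2-fold lower at 9 of the 13 (69.2%) and 8 of the 10 (80%), against 77.6% of all 2136 enhancers. H3K4me2 was at least 2-fold lower at 61.5% and 80% of them, against 72.4%. Ctgf, a target of YAP, had an enhancer 147 kb away with 66 and 29 H3K4me1 reads, and its promoter H3K27ac went from 174 to 54 reads (0.122, 0.0882 to 0.167). Cyr61, of the same family, had 2, with 84 and 32 and with 74 and 9 H3K4me1 reads, and its promoter ratio was 0.662. Loxl2, a collagen crosslinking enzyme, had 2 with 71 and 2 and with 48 and 14 H3K4me1 reads. Cd44, the receptor of hyaluronan, had 1 with 51 and 1 and 1 with 33 and 18, while 9 of its 12 distal intervals were retained. Col5a1 had 4 of 18 distal intervals, and its gene body H3K36me3 was higher in myotubes (1.39).

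Muscle differentiation genes had 4 of their 48 distal intervals (8.33%, against 20.3% over all genes) among the enhancers. By genes the share was 4 of 40 (10%), against 6.61% of all protein-coding genes. Among genes nearest to any distal interval, it was lower in the list, 4 of 17 against 1416 of 4106 overall. The 4 enhancers were those of Tnnt2, Myom1, Tnni1 and Myom2, which encode sarcomere proteins. Promoter H3K27ac held 10 and 38 reads at Tnnt2, a ratio whose interval included 1 (1.49, 0.731 to 3.36), and 1 and 44 reads at Myom1. It went from 8 to 176 reads at the Tnni1 promoter (8.65, 4.30 to 20.4) and from 2 to 114 at Myom2 (22.4, 6.07 to 187). The enhancer of Tnnt2 was the strongest of the 4, with 83 and 51 H3K27ac, 248 and 106 H3K4me1 and 82 and 35 H3K4me2 reads. At Tnnt2 4 of 5 distal intervals were retained. The enhancer of Tnni1 held 14 and 9 H3K27ac, 48 and 29 H3K4me1 and 7 and 8 H3K4me2 reads. The median H3K4me1 ratio of the 4 was 0.462. H3K4me1 was at least 2-fold lower at 3 of the 4 and H3K4me2 at 2.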

How the data were processed

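C2C12 myoblasts and myotubes were profiled by ChIP-seq of 6 histone marks, 1 library per mark and cell type (12 libraries). The deposited read files list uniquely aligned 34 bp reads, which were turned into a count per region here. The authors used Mosaik to align the myoblast reads, and the labels give mm9 (NCBI build 37) for all libraries. The steps for the myotube reads, the merging of files and the treatment of duplicates are not given in the sources used here, and between 0.828 and 6.07% of reads shared position and strand with another. The deposited peak lists give a score for each MACS peak within its library. MACS settings and any control are not given in the sources used here. No input library was used, and the H3K36me3 peak lists were not used.

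Reads on chromosomes 1 to 19 and X were extended to 150 bp and fragment midpoints were counted. Ratios are myotube over myoblast, with 1 read added to each count and scaling by total reads. Intervals are at 95% (exact conditional binomial for a ratio, exact binomial for a share, order statistics for a median) and cover counting error only, since PCR copies are not independent. Genes and TSS came from GENCODE M1 and sequence from the NCBI build 37 genome. For each gene the promoter was that of its TSS richest in H3K4me3 over both libraries. The place of an interval is that of its midpoint. Named regions were the 12 with the most H3K27ac reads, the 5 at each end of the H3K4me1 and H3K4me2 ratios with 20 or more reads and those at the 3-fold limit. Named genes were the 10 with the most enhancers and the genes of 7 lists with at least 1. The 77 enhancers on chromosome 18 were counted and are not named. Some regions and genes that the rule names are not reported here. The members and lists were chosen with earlier results of these data known. No test between conditions was run. The alternatives changed read extension, duplicates, scaling, added reads, fold limit, minimum reads, TSS distance, window and peak overlap or score. The steps were tested on simulated data. Counting used numpy 2.4.6 and pandas 2.3.3 under Python 3.11.15, intervals used scipy 1.17.1, and plots used matplotlib 3.10.9.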

Additional observations from a re-analysis of the deposited data

How the results depend on the processing

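No paired analysis was possible because each cell type had 1 library per mark. With 1 library each, no replicate could be left out. The median ratios stayed below 1 under every alternative run, as did the promoter ratio. A fold limit of 5 left 1414 enhancers and a minimum of 20 reads left 681, and the list deposited with the sample labelled H3K27ac gave 1. The H3K4me1 and H3K4me2 medians were 0.517 and 0.467 when the median of retained intervals was set to 1, which also moved the promoter ratio to 0.664. They were 0.385 and 0.435 with 5 reads added, 0.344 and 0.361 with a fold limit of 2, 0.293 and 0.301 with a limit of 5, 0.310 and 0.294 with 20 reads, and 0.366 and 0.391 in a 2 kb window. With 25 or more reads, an alternative chosen after seeing the data, they were 0.309 and 0.279. The share of H3K4me1 peaks that remained was 23.5% with a fold limit of 5, 35.7% with 20 reads, 1.88% with an overlap of 50% and 5.40% with a score of 100 or more. For H3K4me2 it was 19.98%, 11.7% and 15.1% with a limit of 5, an overlap of 50% and a score of 100. The cause was not tested. Leaving out chromosomes 8 and 15, also chosen after seeing the data, gave medians of 0.329 and 0.338. The myoblast H3K27ac library was the smallest, and at 10 to 14 reads an enhancer's own ratio is imprecise.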
